A study of Mus musculus with 12 samples.

Results

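The 37 genes described here encode the enzymes and carriers of glycolysis, with the hypoxia-inducible factors (HIF) and a set of their known target genes. They were chosen by name and read from mouse embryonic fibroblast arrays through the RefSeq accession that each probe carries. The array named 17012 genes, and all 37 of the set were among them. A gene was tested when the scanner software called a probe of it well above background throughout the 3 arrays of any group, which 35 of the 37 and 12409 genes in all passed. The 2 that did not pass are Epas1 and Car12.

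The arrays compared fibroblasts without FAK, the focal adhesion kinase encoded by Ptk2, which signals from integrins, with a line in which FAK was put back. The knockout line is the published FAK-null mouse embryonic fibroblast line held by a cell bank, and the rescue line is clone DA2, a derivative that expresses FAK again. Each line was seeded sparse, at 410000 cells, or dense, at 8200000 cells, in a 10 cm dish with 10 ml of medium, and harvested 24 h later. This gave 4 groups (rescue sparse, rescue dense, knockout sparse and knockout dense), each with 3 cultures set up on 3 experimental days, with 1 array per culture. All cells grew in DMEM with Glutamax and 10% FBS, but the rescue medium alone also held hygromycin B at 135 ug/ml and non-essential amino acids. Line, clone and medium therefore changed together, and their parts in any difference between the lines cannot be told apart. Each genotype is 1 line, so the p-values measure the spread between cultures of these lines on different days. In these bulk cultures, fewer cells of a type and less RNA per cell cannot be told apart.

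Glycolysis turns glucose into pyruvate in the cytosol, and lactate dehydrogenase then reduces pyruvate to lactate, which leaves the cell through monocarboxylate carriers. When oxygen is short, the prolyl hydroxylases that mark HIF alpha subunits for destruction slow down, and stabilised HIF binds short motifs with the core ACGTG or GCGTG and raises transcription of many glycolytic genes, of the lactate carrier Slc16a3, of the carbonic anhydrase Car9 and of the mitophagy receptor Bnip3. Fibroblasts in culture rely on glycolysis even in air.

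Because most of these genes are textbook HIF targets, the 250 bases before their start sites were searched on both strands for the core ACGTG. On the printed strand a match to the opposite strand reads CACGT, and a palindromic E-box that holds both counts once on each strand. RefSeq promoter windows of build GRCm38.p6 were matched for 33 of the 37 genes. ACGTG lay in 42% of the 50 windows of these genes and in 16.57% of all 32851 windows supplied, and the median GC content was 59.4% and 52.4%. The other core, GCGTG, lay in 50% and 28.16%. Windows are shown for 3 genes that were lower in the knockout line and 3 that were higher, with ACGTG or CACGT in capitals. Only genes with this core are shown, so these windows do not stand for the set. Ldha has another window without ACGTG, and called genes such as Aldoc, Pdk1 and Hk1 have it in none of theirs. A match is a description of the letters only.
Bnip3, chr7:138909507-138909756, minus strand, lower in the knockout line: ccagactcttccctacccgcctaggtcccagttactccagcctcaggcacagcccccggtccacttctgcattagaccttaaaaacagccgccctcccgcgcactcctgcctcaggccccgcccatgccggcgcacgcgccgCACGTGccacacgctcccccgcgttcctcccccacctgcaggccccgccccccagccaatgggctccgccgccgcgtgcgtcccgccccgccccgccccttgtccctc
Pgk1, chrX:106186850-106187099, plus strand, lower in the knockout line: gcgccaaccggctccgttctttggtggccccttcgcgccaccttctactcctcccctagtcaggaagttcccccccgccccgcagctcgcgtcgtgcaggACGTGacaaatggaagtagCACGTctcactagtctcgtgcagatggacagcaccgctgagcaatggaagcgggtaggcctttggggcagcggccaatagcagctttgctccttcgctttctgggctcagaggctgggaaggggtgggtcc
Ldha, chr7:46845554-46845803, plus strand, lower in the sparse knockout line: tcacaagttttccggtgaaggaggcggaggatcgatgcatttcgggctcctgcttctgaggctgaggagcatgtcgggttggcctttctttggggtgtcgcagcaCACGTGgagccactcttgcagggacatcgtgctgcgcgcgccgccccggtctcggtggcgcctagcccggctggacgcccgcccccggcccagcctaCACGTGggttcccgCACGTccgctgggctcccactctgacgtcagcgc
Car9, chr4:43506776-43507025, plus strand, higher in the knockout line: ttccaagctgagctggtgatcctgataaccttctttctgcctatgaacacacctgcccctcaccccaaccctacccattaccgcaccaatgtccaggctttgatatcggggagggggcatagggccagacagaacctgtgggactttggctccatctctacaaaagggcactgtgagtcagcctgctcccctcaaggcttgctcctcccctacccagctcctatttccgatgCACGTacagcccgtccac
Slc16a3, chr11:120948817-120949066, plus strand, higher in the knockout line: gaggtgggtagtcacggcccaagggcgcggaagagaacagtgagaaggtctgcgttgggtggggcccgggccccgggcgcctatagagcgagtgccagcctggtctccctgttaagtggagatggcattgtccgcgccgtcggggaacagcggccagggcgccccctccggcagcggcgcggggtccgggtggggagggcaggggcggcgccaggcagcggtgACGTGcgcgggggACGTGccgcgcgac
Slc16a1, chr3:104638414-104638663, plus strand, higher in the dense knockout line: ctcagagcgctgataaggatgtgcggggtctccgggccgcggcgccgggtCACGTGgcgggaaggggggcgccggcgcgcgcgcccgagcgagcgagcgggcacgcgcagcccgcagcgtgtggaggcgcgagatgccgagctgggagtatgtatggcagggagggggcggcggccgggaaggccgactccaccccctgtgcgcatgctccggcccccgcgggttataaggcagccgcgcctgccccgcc
The core was present on both sides. Of the 18 tested genes with ACGTG in a window, 5 were higher and 6 lower in the sparse knockout line than in the sparse rescue line, and 5 were higher and 4 lower in dense cultures. Of the 14 whose windows lacked it, 5 were higher and 6 lower at each density. Among all genes tested, 23.3% were higher and 25.6% lower in sparse and 31.9% and 29.8% in dense cultures.

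Levels are given as log2 of the processed spot signal over the 75th percentile of that array, so a step of 1 is a change by a factor of 2. They are listed in the order of days 1, 2 and 3, and levels are compared between groups and never between genes. The 75th percentile ranged from 294.2 to 1594 signal units over the 12 arrays, the number of probes well above background from 23144 to 26174 of 41174, and replicates correlated at 0.982 to 0.992. Of the 2 Ptk2 probes, the brighter did not separate the lines (-0.11 sparse, -0.07 dense) and the other was lower in the knockout line, with log2 differences of -2.08 (adjusted p = 0.000162) and -0.93 (adjusted p = 0.0208). Where these probes lie relative to the deleted part was not tested, so they do not settle the labels. In the authors' deposited table of processed values, the 4 columns of day 3 match the scanner file of the other line best (r of 0.972 to 0.984, against 0.833 to 0.874 for their own), while the other 8 match their own (0.98 to 0.987). Among the scanner files, 11 of 12 arrays are nearest to an array of their own group. The libraries are called here by the scanner files' labels, and members whose call changes without day 3 are given with that value. Scaling to 6 spike-in probes instead shifted the median of all genes by -1.55 (knockout against rescue, sparse), 0.80 (dense), 0.72 (density, rescue), 3.07 (density, knockout) and 2.35 (interaction), and the genes whose sign it turned are named where they occur. Of 12 listed fibroblast markers, 9 to 11 were well above background on all arrays of each group. Thy1 was above it only in the dense knockout line, Lum only in the dense rescue line, and Postn on no knockout array. Their summed level was 813.6 to 1213 times the 75th percentile in the rescue arrays and 337.6 to 395.5 in the knockout arrays. Mesothelial genes moved the other way. All 8 of 8 were well above background in the knockout line (sums of 153.5 to 215.1) and 4 of 8 in the rescue line (25.1 to 46.0), where Wt1, Upk3b and Lrrn4 were above it on no array. Epithelial markers summed to 0.243 to 1.84 in the rescue and 8.68 to 26.8 in the knockout arrays, with 2 of 6 well above background on all arrays of each group. Leukocyte genes summed to 1.90 to 3.78 in the rescue and 0.344 to 0.885 in the knockout arrays, with 3 of 5 and 2 of 5 well above background, Ptprc on none. Endothelial markers summed to at most 0.276, skeletal muscle markers to 0.797 to 3.41 and erythroid markers to at most 0.628 in any array. The part of these differences in the results below was not tested.

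The first comparison asks what differs between the knockout line and the rescue line. The glycolysis and hypoxia genes did not move as a block. The knockout line had far more mRNA for the glucose carrier Slc2a3. It also had more for Aldoc, Ldhb, the carbonic anhydrase Car9 and the lactate carriers Slc16a3 and, in dense cultures, Slc16a1. It had 40.5-fold less for Bnip3 in sparse cultures and less for Hk1, Pfkl, Pgk1, Pdk1 and Pfkfb4. In sparse cultures, 11 of the 35 tested genes were higher in the knockout line, 13 were lower and 11 did not pass (limma, Benjamini-Hochberg adjusted p under 0.05 over 12409 genes). Among all genes tested, 23.3% were higher and 25.6% lower, 48.9% in all. In dense cultures, 11 were higher, 12 lower and 12 did not pass, against 31.9% higher and 29.8% lower among all genes, 61.6% in all. The 23 members called in dense cultures are a share close to that background. The rescue and knockout arrays did not overlap for 28 members in sparse and 23 in dense cultures (58.9% and 67.1% of all genes). The median difference was -0.38 in sparse and -0.16 in dense cultures, beside 0.02 and 0.07 for all genes. The sparse and dense comparisons use separate arrays, but they share the lines, the days and each gene's estimate of the spread, so they are not independent. Between them, 10 genes were higher in both (Slc2a3, Hk2, Aldoc, Tpi1, Gapdh, Ldhb, Slc16a1, Slc16a3, Car9 and Egln3), although Hk2, Tpi1, Gapdh, Slc16a1 and Egln3 turned sign in sparse cultures with spike-in scaling. A further 9 were lower in both (Hk1, Pfkl, Pgk1, Pkm, Pdk1, Pfkfb4, Bnip3, Ndrg1 and Adm). The share of all genes called the same way at both densities is not given here, so these counts have no background beside them. Pfkfb1 was lower in sparse and higher in dense knockout cultures. Under spike-in scaling the sparse split became 3 higher and 25 lower and the dense split 12 and 4, with Gpi1 and Bnip3l turning sign in dense cultures. Centring on the median gave 7 higher and 17 lower in sparse cultures. It ended the higher calls of Hk2, Tpi1, Slc16a1 and Egln3 there and added Aldoa, Pgam1, Bnip3l and Hif1a as lower.

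**Figure D1:**
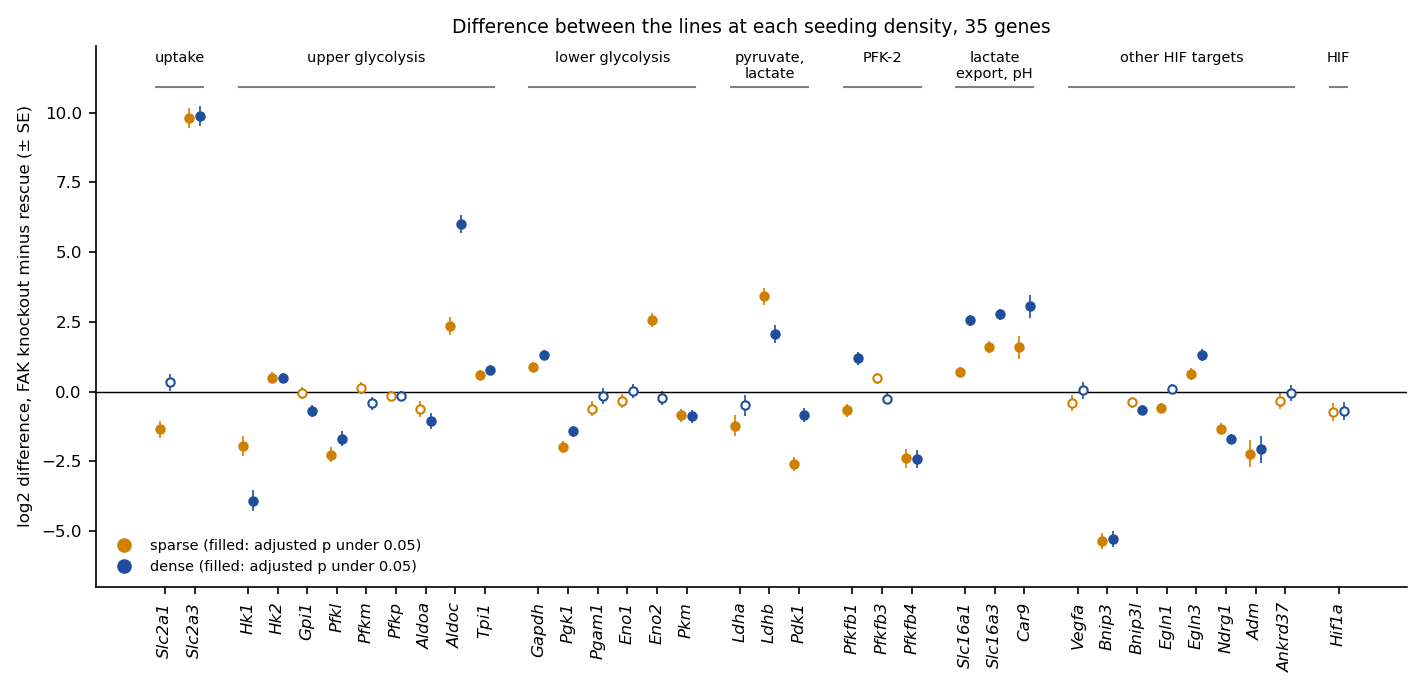
Log2 difference between the FAK knockout and the rescue line (vertical axis, with SE, 3 arrays per group) for the 35 tested genes, grouped by role, in sparse (orange) and dense (blue) cultures. Filled points have a limma adjusted p under 0.05. Slc2a3 stands near 10 and Bnip3 near -5 at both densities, while Slc2a1, Eno2, Pdk1 and Pfkfb1 differ between the densities. The points of Slc2a3, and of Adm in sparse cultures, are fitted values against a group not well above background, for which the text gives bounds. The signs of Hk2, Tpi1, Gapdh, Slc16a1 and Egln3 in sparse and of Gpi1 and Bnip3l in dense cultures turned under spike-in scaling.

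Glucose enters through facilitative carriers, and the 2 carriers of the set went separate ways. Slc2a3 encodes GLUT3, a high-affinity carrier best known from neurons. In the rescue line its probe was not well above background on any of the 6 arrays, with levels between -8.06 and -6.54. In the knockout line it read 2.38, 2.52 and 2.44 in sparse and 2.50, 2.18 and 2.31 in dense cultures. The groups are far apart and the knockout arrays lie close together. Against the lowest signal that counts as well above background, Slc2a3 was at least 352-fold higher in sparse knockout cultures (adjusted p = 6.96e-10) and at least 405-fold higher in dense ones (adjusted p = 4.87e-10). This bound sets the mean of the knockout arrays against the higher of the probe's own signal and each rescue array's lowest signal among probes well above background. Slc2a1 encodes GLUT1, the basal carrier of most cells. It read 3.89, 3.66 and 4.53 in rescue sparse, 3.22, 3.37 and 3.27 in rescue dense, 2.57, 2.65 and 2.82 in knockout sparse and 4.33, 3.30 and 3.22 in knockout dense cultures. Sparse knockout cultures lay below all others, and 1 dense knockout array (day 1) lay above the other 2 by about 1 unit. The sparse difference was -1.35 ± 0.29 (SE, adjusted p = 0.00247) and the dense one 0.33 ± 0.29 (SE, adjusted p = 0.352).

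**Figure D2:**
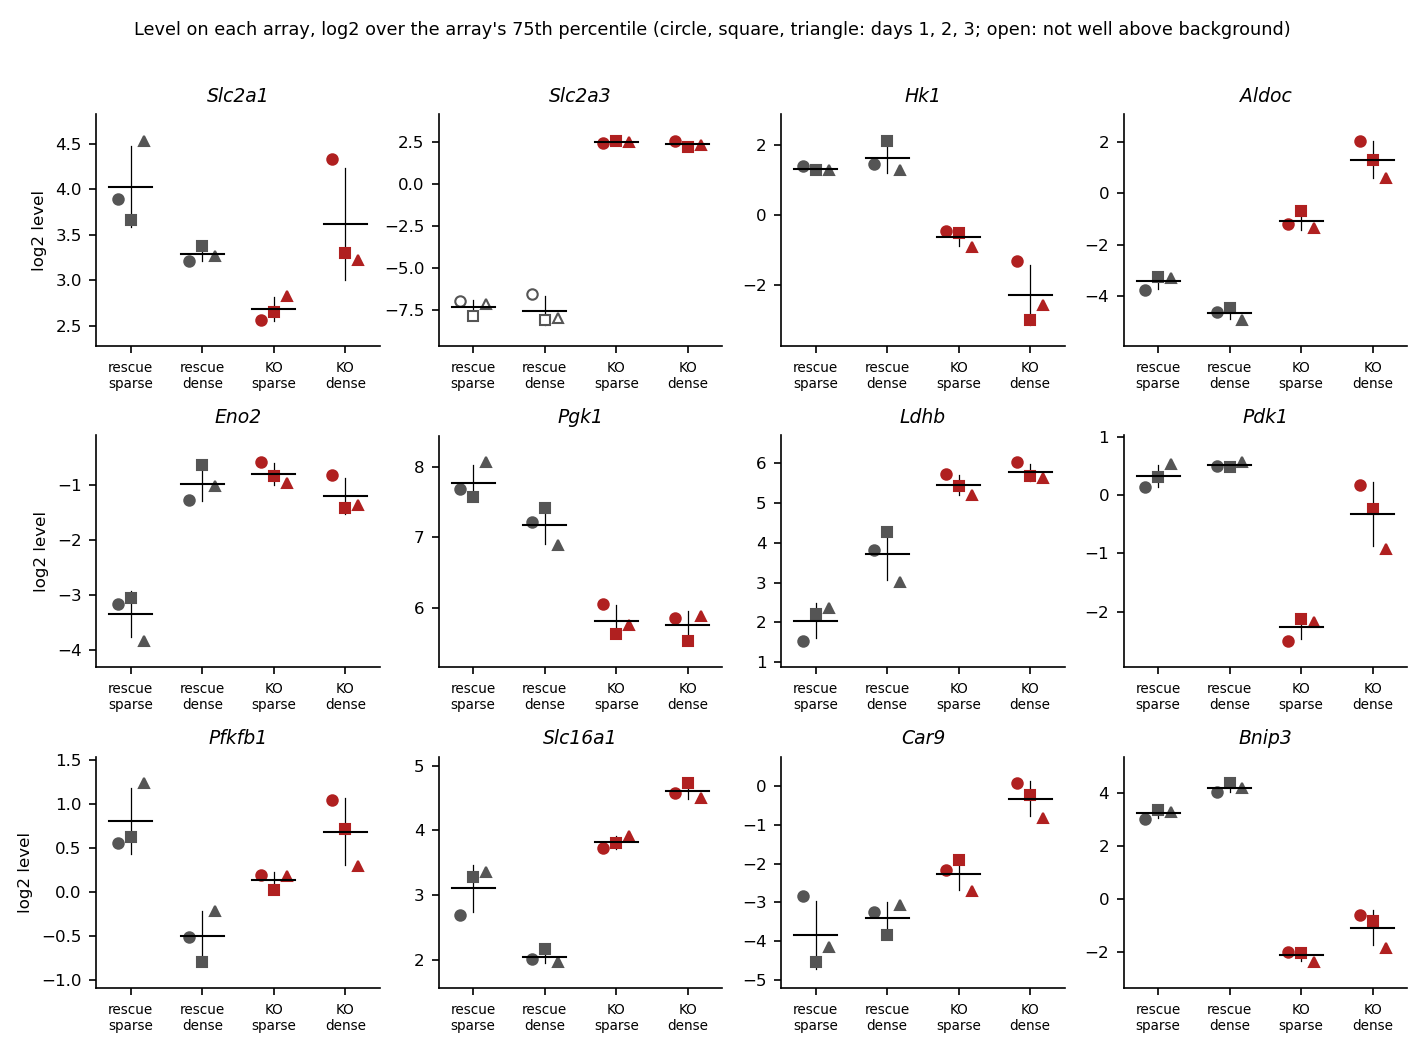
Log2 level of 12 genes on each of the 12 arrays (vertical axis, log2 over the array's 75th percentile), with the 4 groups on the horizontal axis, the mean as a bar and the SD as a line. Circles, squares and triangles are days 1, 2 and 3, and open symbols mark arrays where the probe was not well above background, which holds for Slc2a3 on all 6 rescue arrays. Aldoc and Car9 are highest in dense knockout cultures and Eno2 is lowest in sparse rescue cultures.

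The upper part of the pathway runs from hexokinase to triosephosphate isomerase. Of its 9 genes, 3 were higher and 2 lower in sparse knockout cultures, and 3 were higher and 4 lower in dense ones. The shares of all genes tested were 23.3% and 25.6% in sparse and 31.9% and 29.8% in dense cultures. The hexokinases, which trap glucose as its phosphate, moved in opposite directions, although the sparse sign of Hk2 turned with spike-in scaling. Hk1, the widely expressed form, read 1.41, 1.28 and 1.28 in rescue sparse, 1.46, 2.11 and 1.30 in rescue dense, -0.45, -0.51 and -0.91 in knockout sparse and -1.31, -2.97 and -2.55 in knockout dense cultures. Every knockout array lay below every rescue array. The difference was -1.95 ± 0.36 (SE, adjusted p = 0.000801) in sparse and -3.90 ± 0.36 (SE, adjusted p = 1.80e-06) in dense cultures, a factor of 3.86 and 14.9. The 3 dimmer Hk1 probes gave larger falls, from -5.04 to -3.66 in sparse and from -5.88 to -4.42 in dense cultures, and the mean over its probes gave -3.76 in sparse. Hk2, the inducible form, was 0.50 and 0.49 higher in the knockout line, and both calls were near the threshold (adjusted p = 0.049 and 0.044). They were lost with the experimental day as a block (adjusted p = 0.0597 and 0.0548), without day 3 (0.42 at each density, adjusted p = 0.23 and 0.21), and without any of 8 single arrays. In sparse cultures these were rescue sparse days 2 and 3, rescue dense day 3, the 3 knockout sparse arrays and knockout dense days 2 and 3 (values 0.42 to 0.56, adjusted p 0.0572 to 0.141). In dense cultures they were rescue sparse day 2, rescue dense days 1 and 3, the 3 knockout sparse arrays and knockout dense days 2 and 3 (values 0.36 to 0.49, adjusted p 0.0526 to 0.168).

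Phosphofructokinase-1 commits sugar to glycolysis and is built from liver (Pfkl), muscle (Pfkm) and platelet (Pfkp) subunits. Pfkl read 1.54, 2.58 and 1.88 in rescue sparse, 2.69, 2.23 and 2.11 in rescue dense, -0.52, -0.11 and -0.17 in knockout sparse and 0.78, 0.83 and 0.38 in knockout dense cultures. The lines did not overlap at either density, with differences of -2.27 ± 0.27 (SE, adjusted p = 2.29e-05) and -1.68 ± 0.27 (SE, adjusted p = 0.000179). Pfkm (0.13 and -0.42) and Pfkp (-0.15 and -0.16) did not pass at either density. Aldolase splits the hexose into triose phosphates. Aldoc, the form typical of brain, read -3.76, -3.26 and -3.30 in rescue sparse, -4.64, -4.49 and -4.93 in rescue dense, -1.21, -0.68 and -1.37 in knockout sparse and 2.04, 1.32 and 0.59 in knockout dense cultures. The 4 groups did not overlap. Aldoc was 5.11-fold higher in sparse knockout cultures (2.35 ± 0.33, SE; adjusted p = 8.45e-05) and 64-fold higher in dense ones (6.00 ± 0.33, SE; adjusted p = 1.67e-08). Aldoa, the main form of fibroblasts, gave -0.62 in sparse cultures (not passed, but -1.02, adjusted p = 0.0483, with the slide block, -0.77, adjusted p = 0.00752, with quantile normalization and -0.92, adjusted p = 0.00791, with median centring) and was lower in dense ones, with a log2 difference of -1.05 ± 0.28 (SE, adjusted p = 0.00591). A second Aldoa probe did not pass (-0.66, adjusted p = 0.0813). The value of the first was -0.69 without the rescue dense array of day 2, which read 8.90 beside 7.94 and 7.75. Gpi1, which isomerises glucose phosphate, gave -0.06 in sparse cultures and was lower in dense ones, at -0.69 ± 0.22 (SE, adjusted p = 0.0163), with the sign turning under spike-in scaling. The dense call was lost without the rescue dense array of day 2 or the knockout dense array of day 3 (values -0.61 to -0.43, adjusted p 0.0577 to 0.0608). Tpi1 was higher by 0.60 ± 0.18 (SE, adjusted p = 0.0143) and 0.78 ± 0.18 (SE, adjusted p = 0.0021), the sparse value turning sign with spike-in scaling and the sparse call being lost without the rescue sparse array of day 1 (0.49, adjusted p = 0.0581) or without day 3 (0.58, adjusted p = 0.0825).

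In the lower part, from Gapdh to pyruvate kinase, 2 of 6 genes were higher and 2 lower in sparse knockout cultures, and 1 was higher and 2 lower in dense ones. Beside these stand 23.3% and 25.6% of all genes in sparse and 31.9% and 29.8% in dense cultures. Gapdh, the redox step that is often used as a reference gene, read 6.58, 6.78 and 7.04 in rescue sparse, 6.47, 6.69 and 6.39 in rescue dense, 7.58, 7.97 and 7.53 in knockout sparse and 7.79, 7.80 and 7.92 in knockout dense cultures. It was higher in the knockout on all 3 days at both densities, by 0.89 ± 0.18 (SE, adjusted p = 0.00158) and 1.32 ± 0.18 (SE, adjusted p = 5.27e-05), and the sparse sign turned with spike-in scaling. Pgk1, the next enzyme and the first to yield ATP, moved the other way. It read 7.69, 7.58 and 8.07 in rescue sparse, 7.21, 7.42 and 6.89 in rescue dense, 6.05, 5.62 and 5.76 in knockout sparse and 5.85, 5.53 and 5.88 in knockout dense cultures. The lines did not overlap at either density. The differences were -1.97 ± 0.21 (SE, adjusted p = 7.83e-06) and -1.42 ± 0.21 (SE, adjusted p = 8.41e-05), and a second Pgk1 probe gave -1.76 and -1.48. Eno2, the enolase typical of neurons, read -3.16, -3.06 and -3.83 in rescue sparse, -1.27, -0.63 and -1.01 in rescue dense, -0.58, -0.83 and -0.96 in knockout sparse and -0.82, -1.42 and -1.35 in knockout dense cultures. The sparse rescue arrays lay below the other 9. Eno2 was 5.89-fold higher in the sparse knockout (2.56 ± 0.26, SE; adjusted p = 4.97e-06), while the dense difference was -0.23 ± 0.26 (SE, adjusted p = 0.468). A second Eno2 probe gave 2.84 in the sparse comparison. Pkm, pyruvate kinase, was lower, with log2 differences of -0.85 ± 0.24 (SE, adjusted p = 0.0114) and -0.88 ± 0.24 (SE, adjusted p = 0.00706). With the slide as a block these became -0.67 (adjusted p = 0.156) and -0.70 (adjusted p = 0.112). Pgam1 and Eno1 did not pass in any comparison under these settings. Pgam1 (-0.60 sparse, -0.16 dense) did pass without day 3, at -0.70 (adjusted p = 0.0214) and -0.54 (adjusted p = 0.0433). In sparse cultures it also passed with quantile normalization (-0.67, adjusted p = 0.0153), median centring (-0.90, adjusted p = 0.0203) and the slide block (-0.98, adjusted p = 0.0231). Several of these enzymes have processed pseudogene copies in the mouse genome, and whether the probes also capture those copies was not tested.

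Pyruvate can be made into lactate or burned in mitochondria. Ldha and Ldhb encode the subunits of lactate dehydrogenase that favour lactate formation and lactate use. Ldhb read 1.54, 2.22 and 2.36 in rescue sparse, 3.83, 4.28 and 3.02 in rescue dense, 5.73, 5.43 and 5.21 in knockout sparse and 6.03, 5.67 and 5.64 in knockout dense cultures. Every knockout array lay above every rescue array, and the factor was 10.7 in sparse (3.41 ± 0.31, SE; adjusted p = 2.39e-06) and 4.2 in dense cultures (2.07 ± 0.31, SE; adjusted p = 0.000114). Ldha read 7.40, 7.45 and 7.85 in rescue sparse, 6.56, 7.82 and 6.34 in rescue dense, 6.72, 6.65 and 5.66 in knockout sparse and 6.65, 6.33 and 6.26 in knockout dense cultures. It was lower in the sparse knockout (-1.22 ± 0.38, SE; adjusted p = 0.0184) and gave -0.49 ± 0.38 (SE, adjusted p = 0.28) in dense cultures. The sparse call was lost without day 3 (-0.74, adjusted p = 0.17) and without the rescue sparse or the knockout sparse array of that day (values -1.08 to -0.88, adjusted p 0.0647 to 0.0807). A second Ldha probe was lower at both densities, with log2 differences of -1.46 (adjusted p = 0.000143) and -0.80 (adjusted p = 0.00666). Pdk1, the kinase that switches off pyruvate dehydrogenase, read 0.14, 0.32 and 0.53 in rescue sparse, 0.51, 0.48 and 0.56 in rescue dense, -2.50, -2.13 and -2.18 in knockout sparse and 0.17, -0.24 and -0.92 in knockout dense cultures. It was 6.06-fold lower in the sparse knockout (-2.60 ± 0.25, SE; adjusted p = 3.14e-06) and 1.8-fold lower in the dense one (-0.85 ± 0.25, SE; adjusted p = 0.0105). The dense call was lost without day 3 (-0.53, adjusted p = 0.0827) and with the slide as a block (-0.71, adjusted p = 0.141), and the dense value was -0.55 without the knockout dense array of day 3.

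The Pfkfb genes encode bifunctional enzymes that make and remove the sugar bisphosphate that activates phosphofructokinase-1. Pfkfb4 was lower in the knockout at both densities, with log2 differences of -2.39 ± 0.33 (SE, adjusted p = 7.81e-05) and -2.42 ± 0.33 (SE, adjusted p = 4.65e-05), with rescue levels of 1.56 to 2.79 and knockout levels of -0.87 to 0.26. Pfkfb1 read 0.55, 0.63 and 1.24 in rescue sparse, -0.50, -0.79 and -0.21 in rescue dense, 0.19, 0.02 and 0.19 in knockout sparse and 1.05, 0.72 and 0.30 in knockout dense cultures. The order of the lines changed with density. The sparse difference was -0.67 ± 0.25 (SE, adjusted p = 0.0395) and the dense one 1.19 ± 0.25 (SE, adjusted p = 0.00117). The sparse call was lost without day 3 (-0.48, adjusted p = 0.101) and without any of 6 single arrays (rescue sparse day 3, rescue dense day 1, the 3 knockout sparse arrays and knockout dense day 2, values -0.70 to -0.46, adjusted p 0.0533 to 0.145). Pfkfb3 passed in no comparison with its brightest probe (0.47 sparse, adjusted p = 0.0597, or 0.0454 with the day as a block), whereas its dimmer probes were higher in the sparse knockout by 1.22 and 1.02 (adjusted p = 0.00824 and 0.0103).

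The 3 tested members for lactate transport and pH, Slc16a3, Slc16a1 and Car9, were higher in the knockout line at both densities. The sparse sign of Slc16a1 turned with spike-in scaling. Higher shares of all genes tested were 23.3% in sparse and 31.9% in dense cultures. Of 8 further glucose and monocarboxylate carriers given below, 5 were lower at each density. Slc16a3 encodes MCT4, the lactate exporter of glycolytic cells. It read 4.19, 4.33 and 4.22 in rescue sparse, 3.42, 3.59 and 2.99 in rescue dense, 5.96, 6.00 and 5.58 in knockout sparse and 6.31, 6.13 and 5.86 in knockout dense cultures. The lines did not overlap at either density and the differences were 1.60 ± 0.20 (SE, adjusted p = 3.71e-05) and 2.77 ± 0.20 (SE, adjusted p = 2.18e-07), a factor of 3.03 and 6.81. Slc16a1 encodes MCT1, which carries lactate in both directions. It read 2.69, 3.28 and 3.35 in rescue sparse, 2.01, 2.16 and 1.98 in rescue dense, 3.73, 3.80 and 3.92 in knockout sparse and 4.58, 4.73 and 4.50 in knockout dense cultures. It was higher by 0.70 ± 0.19 (SE, adjusted p = 0.00876) in sparse cultures, where the slide block gave 0.62 (adjusted p = 0.111), and by 2.55 ± 0.19 (SE, adjusted p = 2.59e-07) in dense ones. The sparse call of Slc16a1 was also lost with median centring and with normexp background correction. Car9 encodes a cell-surface carbonic anhydrase that is a standard HIF marker. It read -2.84, -4.52 and -4.16 in rescue sparse, -3.24, -3.85 and -3.08 in rescue dense, -2.15, -1.89 and -2.72 in knockout sparse and 0.08, -0.23 and -0.81 in knockout dense cultures. It was 3-fold higher in sparse (1.59 ± 0.41, SE; adjusted p = 0.00707) and 8.36-fold higher in dense knockout cultures (3.06 ± 0.41, SE; adjusted p = 4.21e-05). Car12, the other surface carbonic anhydrase of the set, was well above background on 1 array with 1 probe and on 2 with the other, and was not tested.

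Of the 8 other HIF targets, 1 was higher and 4 lower at each density. For all genes tested the shares were 23.3% and 25.6% in sparse and 31.9% and 29.8% in dense cultures. Bnip3 encodes a receptor that sends mitochondria to autophagy, and its fall was the largest among the members when each gene is taken by its brightest probe, as some dimmer Hk1 probes fell by more in dense cultures. It read 3.04, 3.37 and 3.30 in rescue sparse, 4.03, 4.36 and 4.17 in rescue dense, -1.97, -2.01 and -2.35 in knockout sparse and -0.58, -0.83 and -1.82 in knockout dense cultures. No knockout array came within 4 units of a rescue array of the same density. Bnip3 was 40.5-fold lower in sparse (-5.34 ± 0.28, SE; adjusted p = 1.40e-08) and 38.6-fold lower in dense knockout cultures (-5.27 ± 0.28, SE; adjusted p = 1.27e-08). Its relative Bnip3l gave -0.38 in sparse (not passed) and -0.65 ± 0.18 (SE, adjusted p = 0.00879) in dense cultures, where spike-in scaling turned the sign, and a second Bnip3l probe gave -1.06 and -1.12. Ndrg1, a stress-response gene, was lower, with log2 differences of -1.33 ± 0.19 (SE, adjusted p = 0.000118) and -1.69 ± 0.19 (SE, adjusted p = 1.06e-05). Adm encodes the vasodilator peptide adrenomedullin. Its probe was well above background on all 6 rescue arrays, on no sparse knockout array and on 1 of 3 dense ones. It was at least 3.28-fold lower in sparse knockout cultures (adjusted p = 0.00225) and gave -2.07 ± 0.48 (SE, adjusted p = 0.00259) in dense ones, but normexp background correction gave 0.091 and 0.13.

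The prolyl hydroxylases are themselves HIF targets that mark HIF alpha for destruction, and they did not move together. Egln3 was higher in the knockout, by 0.64 ± 0.22 (SE, adjusted p = 0.0283) and 1.30 ± 0.22 (SE, adjusted p = 0.000222). The sparse sign turned with spike-in scaling, and the sparse call was lost without rescue sparse days 1 or 2 or any knockout sparse array (values 0.47 to 0.67, adjusted p 0.0542 to 0.115). Egln1 was lower in sparse cultures (-0.59 ± 0.18, SE; adjusted p = 0.0183) and gave 0.08 in dense ones, and the sparse call was lost without day 3 (-0.50, adjusted p = 0.121) and without the rescue sparse array of day 2 or the knockout sparse array of day 3 (values -0.54 to -0.52, adjusted p 0.0572 to 0.068). Vegfa, the vascular growth factor, gave -0.40 and 0.04 with its brightest probe, while another probe was lower, at -0.76 (adjusted p = 0.00541) and -0.75 (adjusted p = 0.00445). Ankrd37 gave -0.33 and -0.03. Of the HIF alpha subunits, Hif1a read 1.02 to 2.35 in the rescue and 0.27 to 1.63 in the knockout line. The differences of -0.73 ± 0.31 (SE, adjusted p = 0.0723) and -0.69 ± 0.31 (SE, adjusted p = 0.074) did not pass, although the sparse one did with median centring (-1.03, adjusted p = 0.035) and the dense one with normexp (-1.10, adjusted p = 0.0234). Epas1, which encodes HIF-2 alpha, was well above background on 0 of 12 arrays. HIF protein was not measured.

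Arrays were printed on 5 slides. Both densities of a line and day share a slide, and only slide 3 (day 2) held both lines. Within that slide, with 1 array per group and no test, the line differences kept their sign for all 24 sparse and all 23 dense calls, for example -5.37 and -5.20 for Bnip3, 2.58 and 5.80 for Aldoc and -1.96 and -1.89 for Pgk1. Besides Adm in dense cultures, where 1 of 3 knockout arrays was well above background, the values that moved by over 1.5 times there were Car9 (2.63), Ldha (-0.80) and Tpi1 (0.28) in sparse cultures and Gpi1 (-1.08), Aldoa (-1.94) and Pkm (-0.54) in dense ones. Slc2a3 in the rescue line and Adm in the sparse knockout line were not well above background, so they have no exact value there. In a fit with the slide as a fixed block, the mean line difference of the densities comes from slide 3 alone. That fit is therefore not a separate check from the values within slide 3. With this block the sparse calls were 7 higher and 13 lower and the dense calls 9 higher and 10 lower. The sparse calls of Hk2, Tpi1, Pkm, Pfkfb1, Slc16a1 and Egln3 and the dense calls of Hk2, Tpi1, Pkm and Pdk1 were lost. Of those 13 lower in sparse cultures, 11 were called without the block and Aldoa and Pgam1 were added. Normexp background correction ended the sparse calls of Hk2, Tpi1, Gapdh (0.64, adjusted p = 0.0898), Pfkfb1 and Slc16a1 and the dense calls of Hk2, Tpi1, Pkm and Bnip3l (-0.54, adjusted p = 0.131).

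The next comparison asks how each line responds to crowding. In the rescue line, 5 of 35 genes were higher and 7 lower in dense than in sparse cultures (19.1% and 21% of all genes tested, 40.1% in all, so the 12 members called are a smaller share than the background). In the knockout line, 6 were higher and 2 lower (5.46% and 5.51% of all genes, 11% in all). Sparse and dense arrays did not overlap for 15 members in the rescue and 14 in the knockout line (50.7% and 38.2% of all genes). The median difference was 0.10 in the rescue and 0.15 in the knockout line, beside -0.08 and -0.00 for all genes. Bnip3 rose and Hk2 fell in both lines, the sign of Hk2 in the knockout line turning with spike-in scaling. Aldoc and Slc16a1 fell in the rescue line and rose in the knockout line. Under spike-in scaling the rescue split became 7 higher and 0 lower and the knockout split 35 and 0, with the signs of Pgk1 and Egln1 turned in the rescue line and of Hk1 and Hk2 in the knockout line.

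**Figure D3:**
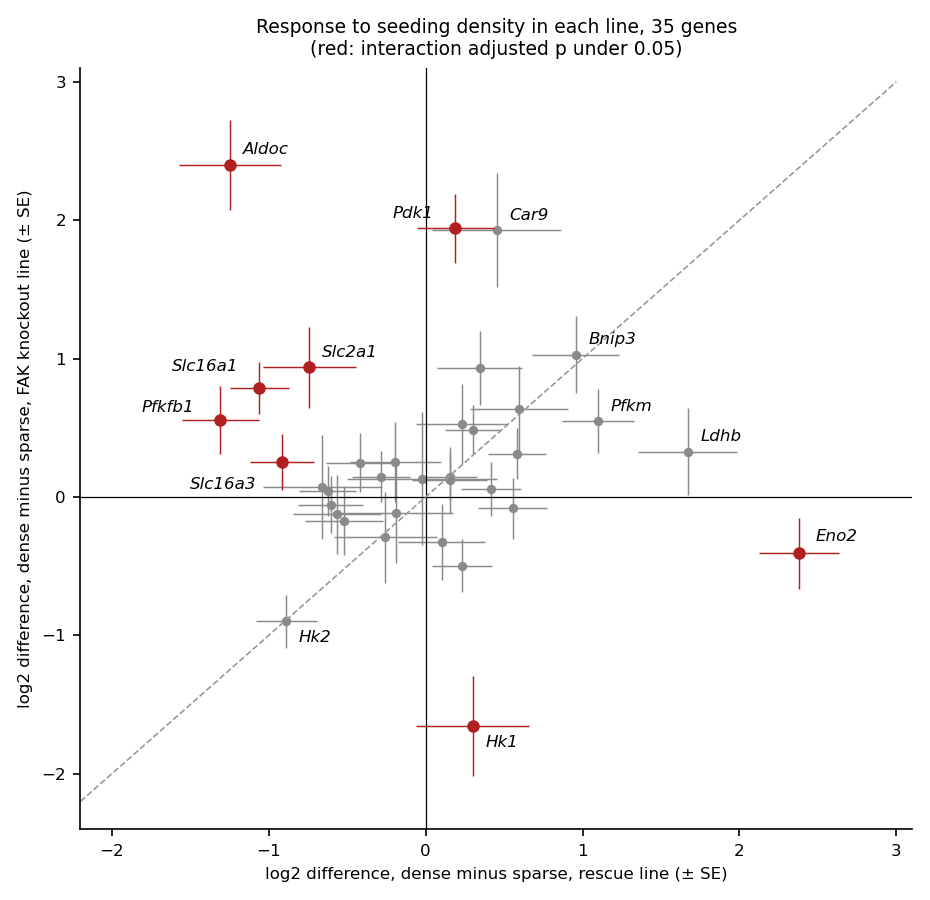
Response to seeding density (log2 difference, dense minus sparse, with SE) in the rescue line (horizontal) and in the FAK knockout line (vertical) for the 35 tested genes, 3 arrays per group. Red points have an interaction with a limma adjusted p under 0.05, and the dashed line marks equal responses. Aldoc lies at -1.25 and 2.40, Eno2 at 2.38 and -0.41, Hk1 at 0.30 and -1.65, and Hk2 and Bnip3 lie near the line of equal response. Spike-in scaling turned the signs of Pgk1 and Egln1 in the rescue line and of Hk1 and Hk2 in the knockout line.

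In the dense cultures of the rescue line, Eno2 (2.38 ± 0.26, SE; adjusted p = 3.35e-05), Ldhb (1.67 ± 0.31, SE; adjusted p = 0.00139), Pfkm (1.10 ± 0.23, SE; adjusted p = 0.00261), Bnip3 (0.96 ± 0.28, SE; adjusted p = 0.0174) and Bnip3l (0.58 ± 0.18, SE; adjusted p = 0.0256) were higher than in its sparse cultures. There Pfkfb1 fell by 1.31, Aldoc fell by 1.25, Slc16a1 fell by 1.06, Slc16a3 fell by 0.92, Hk2 fell by 0.89, Egln1 fell by 0.62 and Pgk1 fell by 0.61 on the log2 scale (adjusted p from 0.000992 to 0.0359), the last 2 turning sign with spike-in scaling. Of these 12 calls, 8 held without each array in turn. Pgk1 was lost without rescue sparse days 1 or 3 or rescue dense days 1 or 3 (values -0.65 to -0.46, adjusted p 0.0563 to 0.128), Bnip3 without rescue sparse day 1 or rescue dense day 2 (values 0.86 to 0.87, adjusted p 0.0566 to 0.0595), Bnip3l without rescue sparse days 2 or 3 or rescue dense days 1 or 2 (values 0.41 to 0.59, adjusted p 0.0582 to 0.0794), and Egln1 without rescue sparse day 2 or rescue dense days 1 or 3 (values -0.58 to -0.54, adjusted p 0.0529 to 0.0601). Without day 3, Pgk1 gave -0.32, Bnip3l 0.48 and Egln1 -0.52, none of which passed. With the day as a block, Gpi1 (0.56, adjusted p = 0.037), Eno1 (-0.52, adjusted p = 0.0402) and Ndrg1 (0.42, adjusted p = 0.0451) passed as well. Normexp background correction ended the calls of Aldoc (-0.72, adjusted p = 0.141), Slc16a3 (-0.74, adjusted p = 0.103), Pgk1, Bnip3l and Egln1. Without the rescue dense array of day 2, 3 genes were higher instead of 5.

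In the dense cultures of the knockout line, Aldoc (2.40 ± 0.33, SE; adjusted p = 0.00208), Pdk1 (1.94 ± 0.25, SE; adjusted p = 0.00171), Car9 (1.93 ± 0.41, SE; adjusted p = 0.0138), Bnip3 (1.03 ± 0.28, SE; adjusted p = 0.0373), Pfkl (0.93 ± 0.27, SE; adjusted p = 0.0473) and Slc16a1 (0.79 ± 0.19, SE; adjusted p = 0.0231) were higher than in its sparse cultures. Hk1 (-1.65 ± 0.36, SE; adjusted p = 0.0158) and Hk2 (-0.90 ± 0.19, SE; adjusted p = 0.014) were lower, and both turned sign with spike-in scaling. The calls of Aldoc and Pdk1 held without each array in turn, and the other 6 did not. Car9 was lost without knockout sparse day 3 or knockout dense day 2 (values 1.70 to 1.88, adjusted p 0.0537 to 0.0555), Hk1 without knockout sparse day 1 or knockout dense day 2 (values -1.57 to -1.31, adjusted p 0.0613 to 0.0628) and Hk2 without knockout sparse day 1 (-0.83, adjusted p = 0.0608). Slc16a1 was lost without any knockout sparse array or knockout dense days 1 or 2 (values 0.72 to 0.84, adjusted p 0.0531 to 0.0936). Bnip3 was lost without rescue sparse day 2, rescue dense day 1, any knockout sparse array or knockout dense days 1 or 2 (values 0.78 to 1.10, adjusted p 0.0502 to 0.133). Pfkl was lost without any of 10 arrays, all but rescue sparse days 1 and 2 (values 0.80 to 1.07, adjusted p 0.0519 to 0.161), and with the slide as a block. The number higher was 3 without knockout sparse day 1, knockout sparse day 2 or knockout dense day 1, and 2 without knockout sparse day 3 or knockout dense day 2. The number lower by limma was 0 without knockout sparse day 1 (2 at an unadjusted p under 0.05) and 1 without knockout dense day 2. Without day 3 altogether, 3 were higher (Aldoc, Pdk1 and Bnip3) and 0 lower by limma (2 at an unadjusted p under 0.05), and Car9 gave 1.94, Pfkl 1.12, Slc16a1 0.89, Hk1 -1.66 and Hk2 -0.97. Normexp background correction left Aldoc alone among the 8 (Pdk1 gave 1.23, adjusted p = 0.0532), and the mean over all Hk1 probes gave -0.80 (adjusted p = 0.0589).

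Whether the lines respond differently was tested as the interaction, the density difference in the knockout line minus that in the rescue line. Called were 20.8% of all genes tested, and the 8 members called are a share close to that. The interaction was above 0 for 6 genes and below 0 for 2 (11.3% and 9.52% of all genes tested). It was positive for Aldoc (3.65 ± 0.46, SE; adjusted p = 0.000405), Pfkfb1 (1.86 ± 0.35, SE; adjusted p = 0.00349), Slc16a1 (1.85 ± 0.27, SE; adjusted p = 0.000841), Pdk1 (1.75 ± 0.35, SE; adjusted p = 0.00498), Slc2a1 (1.68 ± 0.42, SE; adjusted p = 0.015) and Slc16a3 (1.17 ± 0.29, SE; adjusted p = 0.0139). It was negative for Eno2 (-2.78 ± 0.36, SE; adjusted p = 0.000459) and Hk1 (-1.95 ± 0.51, SE; adjusted p = 0.0195), the sign of Hk1 turning with spike-in scaling. These 8 calls held without each array in turn. Without day 3, Slc2a1 (1.69, adjusted p = 0.0684), Hk1 (-2.10, adjusted p = 0.109) and Slc16a3 (1.00, adjusted p = 0.0526) did not pass, and spike-in scaling gave 32 above and 0 below 0. Other Slc16a1 probes gave 1.83 and 1.82 and a second Eno2 probe gave -3.55, all passing, whereas the 3 other Hk1 probes gave -1.18 to -0.77 and did not pass. Normexp background correction ended the calls of Hk1 (-1.43, adjusted p = 0.0516), Pdk1 (1.11, adjusted p = 0.113) and Slc16a3 (0.93, adjusted p = 0.238). Ldhb (-1.34, adjusted p = 0.0518) and Car9 (1.48, adjusted p = 0.0952) did not reach the threshold. Ldhb passed without day 3 (-1.90, adjusted p = 0.0384), with quantile normalization (-1.25, adjusted p = 0.0455) and with the filters on bright probes or the mean over probes (-1.34, adjusted p = 0.0325 and 0.0475). Car9 passed with the slide block (1.48, adjusted p = 0.0347) and median centring (1.73, adjusted p = 0.0383). The 7 genes called in no comparison under the settings used here are Pfkp, Pgam1, Eno1, Pfkfb3, Vegfa, Ankrd37 and Hif1a.

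A further 8 lists cover the rest of the pathway. Their counts stand beside 23.3% of all genes tested higher and 25.6% lower in sparse, and 31.9% and 29.8% in dense knockout cultures. Among 14 tested glycolytic isoenzymes, 3 were higher and 5 lower in the knockout at each density. Tigar, a fructose bisphosphatase that slows glycolysis, was higher by 3.22 ± 0.26 (SE, adjusted p = 6.10e-07) and 3.75 ± 0.26 (SE, adjusted p = 1.23e-07), and Galm, which interconverts the forms of galactose, was lower, at -1.80 and -2.31. Of 8 further glucose and monocarboxylate carriers, 2 were higher and 5 lower at each density. Emb, an ancillary protein of some monocarboxylate carriers, was lower, with log2 differences of -5.85 ± 0.27 (SE, adjusted p = 4.04e-09) and -7.68 ± 0.27 (SE, adjusted p = 3.54e-10). Slc2a10 was at least 17.3-fold and 28.1-fold lower. In the pentose phosphate pathway, 0 of 9 genes were higher (1 at an unadjusted p under 0.05, limma) and 3 lower in sparse cultures and 3 higher and 2 lower in dense ones. G6pdx, the enzyme that commits glucose to that pathway, was lower, with log2 differences of -1.99 ± 0.16 (SE, adjusted p = 7.76e-07) and -1.89 ± 0.16 (SE, adjusted p = 9.02e-07). Of 13 tested genes of gluconeogenesis and glycogen, 2 were higher and 6 lower in sparse and 1 higher and 8 lower in dense cultures. Pygl, a glycogen phosphorylase, was lower in sparse cultures (-5.91 ± 0.31, SE; adjusted p = 1.40e-08), where 1 of 3 knockout arrays was well above background, and at least 486-fold lower in dense cultures.

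**Figure D4:**
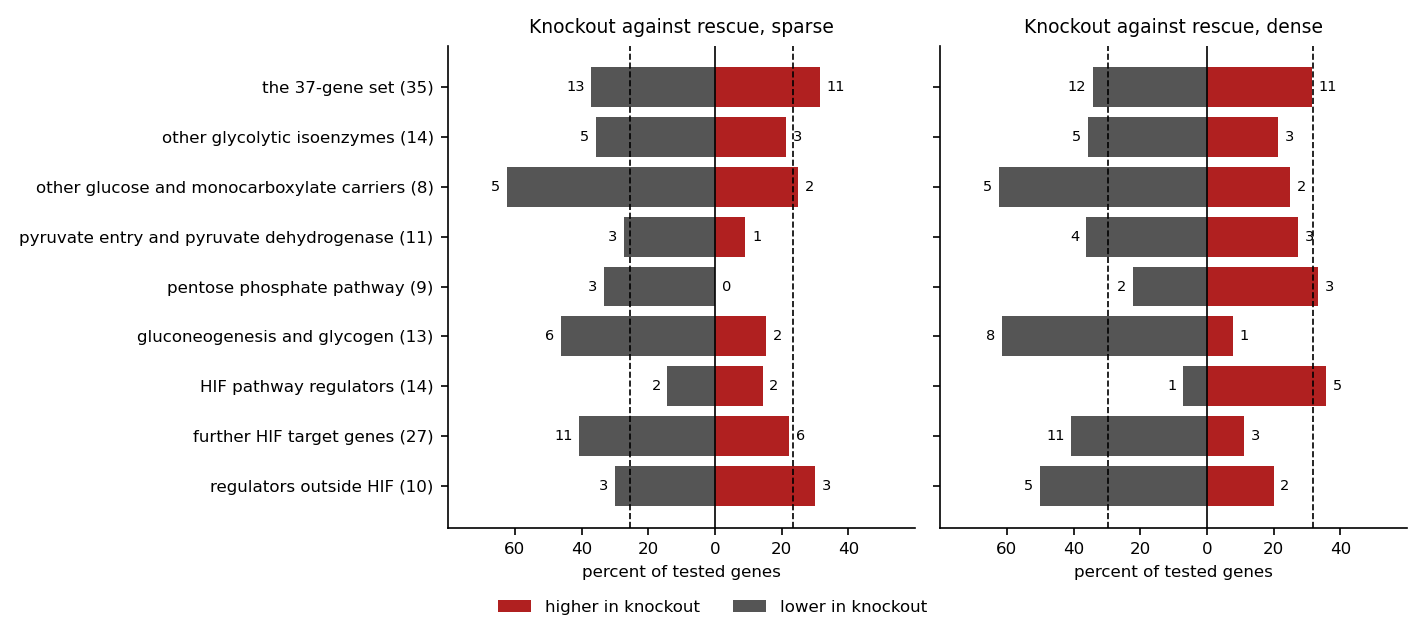
Percent of the tested genes of each list (number tested in brackets) that were higher (red, to the right) or lower (grey, to the left) in the FAK knockout line than in the rescue line, at limma adjusted p under 0.05, in sparse and dense cultures. Numbers at the bars are counts and dashed lines the shares among all 12409 genes tested (23.3% and 25.6% in sparse, 31.9% and 29.8% in dense cultures). The carriers have 5 of 8 genes lower at both densities. The split of the 37-gene set became 3 and 25 in sparse and 12 and 4 in dense cultures with spike-in scaling.

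Of 14 tested HIF pathway regulators, 2 were higher and 2 lower in sparse and 5 higher and 1 lower in dense knockout cultures. For this list and those that follow, the shares of all genes tested were 23.3% and 25.6% in sparse and 31.9% and 29.8% in dense cultures. Hif1an, the asparaginyl hydroxylase that blocks HIF activity, was higher by 1.21 ± 0.28 (SE, adjusted p = 0.00385), which spike-in scaling turned in sign, and 1.36 ± 0.28 (SE, adjusted p = 0.00131). Cited2, which competes with HIF for its coactivators, was lower, with log2 differences of -1.73 ± 0.20 (SE, adjusted p = 1.96e-05) and -1.81 ± 0.20 (SE, adjusted p = 9.14e-06). Of 27 tested further HIF targets, 6 were higher and 11 lower in sparse and 3 higher and 11 lower in dense cultures. They too went both ways: Edn1, the vasoconstrictor endothelin, was higher by 2.35 ± 0.23 (SE, adjusted p = 3.41e-06) and 5.08 ± 0.23 (SE, adjusted p = 2.49e-09), and Flt1, a receptor for Vegfa, was at least 216-fold lower in sparse and also lower in dense knockout cultures (-9.39 ± 0.60, SE; adjusted p = 7.40e-08), where 1 of 3 arrays was well above background. With crowding, 9 of these 27 were higher and 4 lower in the rescue line, and 1 was higher and 3 lower in the knockout line. The shares of all genes were 19.1% and 21% in the rescue and 5.46% and 5.51% in the knockout line. Stc2, a secreted stress glycoprotein, fell by 3.32 in the rescue line and gave -0.25 in the knockout line, an interaction of 3.06 ± 0.32 (SE, adjusted p = 0.000136). Among 11 tested genes of pyruvate entry and pyruvate dehydrogenase, 1 was higher and 3 lower in sparse and 3 higher and 4 lower in dense knockout cultures. Among 10 tested regulators outside HIF, 3 were higher and 3 lower in sparse and 2 higher and 5 lower in dense cultures. Mycn, a MYC family transcription factor, was not well above background on any rescue array and was at least 458-fold and 701-fold higher in the knockout line. Txnip, which restrains glucose uptake, rose by 2.67 ± 0.24 (SE, adjusted p = 1.18e-05) with crowding in the rescue line and gave 0.37 in the knockout line, an interaction of -2.29 ± 0.34 (SE, adjusted p = 0.000938) whose sign turned with spike-in scaling.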

How the data were processed

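Total RNA (100 ng per culture) was labelled with Cy3 and hybridised to 12 single-colour Agilent mouse arrays, per the labels' protocols. The authors deposited each array's scanner output from Agilent Feature Extraction 10.5.1.1, whose processed signal is a linear spot intensity after background subtraction and detrending, per the file headers. The authors also deposited a table of log2 values, whose column medians are 8.38 to 8.39 and whose between-array normalization is not given in the sources used here. Scanner output carries no read depth, and the number of arrays, 3 per group, limits the precision.

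From the scanner files, control spots and outlier spots (79 to 265 per array) were left out, spots of 1 probe were averaged, and log2 processed signal was set relative to the 75th percentile of each array. Probes were named through RefSeq accessions, which gave 1 gene for 24367 of 41174 probes. A probe was kept when the scanner software called it well above background throughout the 3 arrays of any group. The brightest kept probe by mean over all arrays stood for its gene, and for 4462 genes several probes were kept. In the order sparse line, dense line, rescue density, knockout density and interaction, 21, 41, 25, 22 and 4 genes had probes called in opposite directions. All 4 groups were fitted together with limma 3.58.1 in R 4.3.3 (lmFit and eBayes, 8 residual degrees of freedom), and p-values were Benjamini-Hochberg adjusted over 12409 genes, with a threshold of 0.05. SE is the moderated standard error of the log2 difference. The fit was tested on simulated data.

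The labels give the replicate number as the experimental day, so the numbers pair the samples. Of 18 pairs of arrays from 1 day, 11 had deviations from the group means that correlated above 0.1 (range -0.04 to 0.29). The blocked fit is an alternative. Other alternatives were quantile, median and spike-in scaling (6 probes), normexp background correction (offset 50), the deposited table, filters on dim probes, the mean over probes, the slide as a fixed block, and leaving out each array. Normexp used the median spot signal. Analyses without day 3 were chosen after seeing the data.

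The members and lists were chosen with earlier results of these data known. Members whose adjusted p passed in at least 1 comparison with groups that do not overlap there could be given in full, and other members by their values in brief. Of each further list, only the 3 called genes with the largest absolute difference in a comparison could be named. Probe-level values, and lists as a whole, were given in addition.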

Additional observations from a re-analysis of the deposited data

Results flagged for a closer look

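For 8 of 35 tested members the response to seeding density differed between the lines by the interaction test (limma, adjusted p under 0.05 over all genes). This is a share close to the 20.8% of all genes tested that were called. The difference, knockout response minus rescue response on the log2 scale, was 3.65 for Aldoc, 1.86 for Pfkfb1, 1.85 for Slc16a1, 1.75 for Pdk1, 1.68 for Slc2a1 and 1.17 for Slc16a3. It was -2.78 for Eno2 and -1.95 for Hk1, and that of Hk1 turned sign with spike-in scaling. Without day 3 the calls of Slc2a1, Hk1 and Slc16a3 were lost, and normexp ended those of Hk1, Pdk1 and Slc16a3. The other Hk1 probes did not pass. For Aldoc, Slc16a1, Pfkfb1 and Slc2a1, the 3 dense arrays lay below the 3 sparse arrays in the rescue line and above them in the knockout line. Of these, only Aldoc and Slc16a1 were called for density in both lines.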

How the results depend on the processing

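The counts of members higher or lower moved by over 1.5 times in the settings that follow. Higher in the sparse knockout line (11) became 7 with median centring, normexp or the slide block, and 3 with spike-in scaling. Lower in that comparison (13) became 25 and lower in dense cultures (12) became 4 with spike-in scaling. In the rescue line, higher with crowding (5) became 8 with quantile normalization, and lower (7) became 3 with normexp, 0 with spike-in scaling and 4 in the deposited table without day 3. In the knockout line, higher (6) became 1 with normexp, 35 with spike-in scaling and 3 without day 3. Lower (2) became 1 with median centring and 0 with normexp, spike-in scaling or without day 3 in either source (limma, 2, 0, 2 and 3 at an unadjusted p under 0.05). Interactions above 0 (6) became 32 with spike-in scaling, and those below 0 (2) became 1 with normexp, 4 with the mean over probes and 0 with spike-in scaling (limma, 0 unadjusted). The deposited table with its labels as given called 0 members in each comparison and direction by limma, with 0 to 3 at an unadjusted p under 0.05. Over all genes it called 0, except 1 lower with crowding in the knockout line. Without day 3 that table gave 8 higher and 12 lower members in sparse and 10 and 13 in dense knockout cultures.

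Leaving out each array gave 9 to 12 higher and 10 to 14 lower (sparse), 10 to 11 and 11 to 13 (dense), 3 to 6 and 5 to 9 (rescue density), 2 to 7 and 0 to 2 (knockout density, where knockout sparse day 1 gave 0 by limma, 2 unadjusted), and 6 to 7 and 2 to 3 (interaction). With the experimental day as a replicate block the counts were 11 and 13, 10 and 12, 7 and 8, 6 and 2, and 6 and 2 in the same order. It changed no call beyond those given for Hk2, Pfkfb3, Gpi1, Eno1 and Ndrg1.

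Signs reversed in the deposited table for Pkm (0.17) and Ldha (0.28) in sparse and Pdk1 (0.18) in dense knockout cultures and for Aldoc (0.10) and Pgk1 (0.02) with crowding in the rescue line, and with normexp for Adm (0.091 sparse, 0.13 dense). Without day 3, whose columns match the scanner files of the other line best, the deposited table reversed 0 of these signs. The cause of these changes was not tested. Signal over background limits Slc2a3 in the rescue line and Adm in the sparse knockout line to bounds, and leaves Epas1 and Car12 without a test.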

Other observations

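Several genes of the further lists differed between dense and sparse cultures. Pdp1, the phosphatase that reactivates pyruvate dehydrogenase, rose by 2.26 with crowding in the rescue line. Pdk2, a kinase that opposes it, rose by 1.35 there. By limma, 0 of 11 genes of their list had a called interaction (2 in each direction at an unadjusted p under 0.05), beside 20.8% of all genes tested. Prps1, which makes the ribose donor for nucleotides, fell by 1.75 in the rescue line, with an interaction of 1.85. Siah2, a ubiquitin ligase that targets prolyl hydroxylases, fell by 1.54 there, with an interaction of 1.68. Myc fell with crowding in both lines, by 1.91 in the rescue and by 2.20 in the knockout line, the latter turning sign with spike-in scaling. The differences given for named genes passed limma's test at an adjusted p under 0.05.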
